A study of Mus musculus with 62 samples.

Results

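Astrocytes were followed in bulk RNA from prefrontal cortex (PFC) and nucleus accumbens (NAc) tissue through 10 genes: Slc1a2, Slc1a3, Glul, Aqp4, Gja1, Gfap, S100b, Aldoc, Apoe and Sparcl1. They were chosen by name, as the counted genes whose Ensembl identifier carries one of these symbols, and all 10 were among the 11121 genes counted. Mice of the wild-type strain C57BL/6j, male by the study's methods and 15 weeks old, were either exposed to multimodal chronic restraint stress (mCRS) or left unstressed (CTR). The PFC was represented by 15 libraries per treatment and the NAc by 16 per treatment, and no genetic change or drug distinguished the groups. RNA was sequenced by BRB-seq, in which each sample receives a barcode at the 3′ end of its transcripts and all samples are then pooled into one preparation. PFC and NAc were dissected from the same set of mice, but the labels do not say which libraries share a mouse, so libraries were taken as independent and p-values measure the spread between them.

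Astrocytes take up the glutamate that neurons release and turn it into glutamine, which returns to neurons and serves again as a source of transmitter. Slc1a2 (GLT-1) and Slc1a3 (GLAST) encode the transporters that carry out most of this uptake, and Glul encodes glutamine synthetase. Astrocytes also move water and ions through channels at their end feet, are joined by gap junctions, and supply lipids and synapse-organising proteins. In bulk tissue, fewer cells of a type and less RNA per cell cannot be told apart.

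The libraries held between 945286 and 4857359 counts, and the group medians lay between 1966931 (PFC mCRS) and 2884276.5 (NAc CTR). The 10 genes took between 0.604% and 1.07% of all counts of a library. Fewer of the listed genes were detected in PFC mCRS, 82.3% ± 6.22 (SD, n = 15), than in PFC CTR, 87.1% ± 4.42 (SD, n = 15), while the shares in the NAc were 88.5% ± 7.43 (SD, n = 16) in mCRS and 90.2% ± 7.13 (SD, n = 16) in CTR. Counts of mitochondrial DNA genes made up 16.04% ± 3.64 of PFC mCRS and 12.9% ± 3.004 of PFC CTR libraries (SD, n = 15 each), against 10.6% ± 1.602 and 10.3% ± 1.31 in NAc mCRS and NAc CTR (SD, n = 16 each). Of the markers of cortical excitatory neurons 10 of 14 passed the test as higher in the PFC, and of those of striatal projection neurons 16 of 19 passed as lower in the PFC, among CTR mice. NAc CTR library 7 went against its label: its summed striatal markers were 1035 CPM (counts scaled to a common library size) against a group median of 7674, inside the PFC CTR range of 1024 to 2569, and its cortical markers were at 280 CPM against a group median of 928. NAc mCRS library 10 held 23888 CPM of ependymal and choroid plexus markers against a group median of 256. Several results in the NAc are therefore also given without these libraries, while the ratio of Slc1a2 to Slc1a3 was not recomputed without them. CPM were computed with TMM-scaled library sizes, and levels of different genes are not compared, since a 3′ tag count depends on the transcript end.

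Both transporters and the enzyme of glutamine synthesis were measured well above the counting floor in every library. Aqp4, which encodes the water channel of astrocyte end feet, had 0 counts in PFC CTR library 13 and in PFC mCRS library 12, where 3 counts would be 1.66 and 2.63 CPM. Gfap, which encodes the intermediate filament of astrocytes, had 0 counts in PFC CTR library 11, where 3 counts would be 1.76 CPM. The 3′ end of S100b overlaps Dip2a on the opposite strand (chromosome 10, 76259429 to 76261159, GRCm38), and since the strand setting of the counting is not given in the sources used here, reads of the pair could be mixed. At the 3′ ends of its transcripts, Glul shared 3.11% of its 70-base windows with the gene copies Glns-ps1 and AC134576.3. Slc1a3 shared 0.504% of its 3′ end windows with C530043A13Rik and Gm43728.

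**Figure D1:**
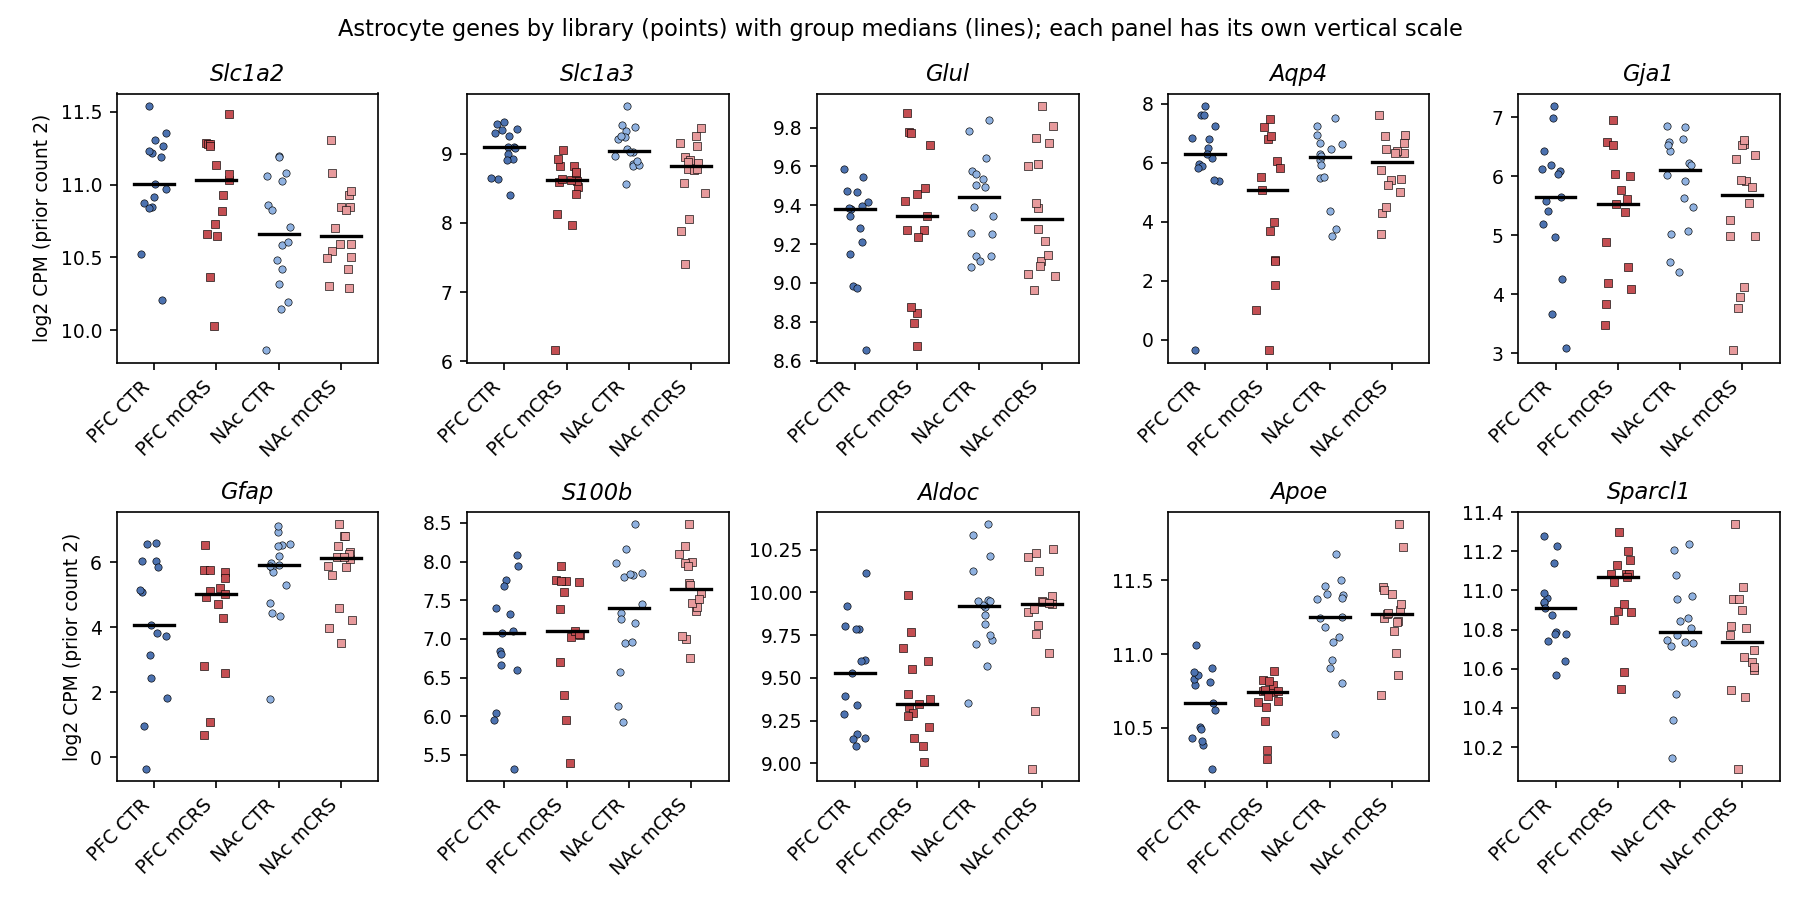
Level of each of the 10 astrocyte genes in log2 CPM (prior count 2, vertical axis, a separate scale per panel) in the 4 groups (horizontal axis), with 1 point per library and a line at the group median. Apoe and Aldoc sit lower in PFC than in NAc libraries, and Slc1a3 sits lower in mCRS than in CTR libraries of the PFC, while Aqp4 and Gfap spread widest.

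The first comparison asked whether mCRS changed the astrocyte genes in the PFC. By edgeR's quasi-likelihood test with Benjamini-Hochberg adjustment, 0 of the 10 genes and 0 of 8916 genes tested (0%) had a false discovery rate (FDR) below 0.05. At an unadjusted p below 0.05 stood 1 of the 10 genes, Slc1a3, and 312 of the 8916 (3.5%), and DESeq2 on all 11121 genes also called 0, with 576 at an unadjusted p below 0.05. The log2 fold changes of mCRS against CTR had a median of -0.04 over the 10 genes and of -0.01 over all genes tested, with 4 of the 10 above and 6 below 0.

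Slc1a3 (ENSMUSG00000005360; chromosome 15, 8634124 to 8710764, minus strand, GRCm38) had the smallest p of the 10 genes in both regions. In PFC CTR libraries it lay between 338 and 703 CPM with a median of 546, and in PFC mCRS libraries between 70.5 and 532 CPM with a median of 395. All 15 mCRS libraries lay below the CTR median and 9 CTR libraries lay above every mCRS library, although the ranges overlapped. The fitted level after mCRS was 0.701 times that of CTR, a log2 fold change of -0.51 (SE 0.17, 95% interval -0.86 to -0.17), with an unadjusted p of 0.00429 that ranked 40 of 8916 and an FDR of 0.898 in edgeR's quasi-likelihood test. The lowest value belonged to mCRS library 9, and without it the log2 fold change was -0.43 (unadjusted p = 0.00447, edgeR). With the share of genes detected, which was lower in PFC mCRS, as a covariate it was -0.58 (unadjusted p = 0.00292, edgeR).

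The promoter of Slc1a3 is shown because this gene had the smallest p under stress, and glucocorticoid hormones are released in stress. It comes from RefSeq (GRCm38.p6, chr15:8710808-8711057, minus strand) and holds the 250 bases before the start site listed there, with matches to AGAACA on either strand in capitals, the letters of 1 arm of the element bound by the glucocorticoid receptor.
Slc1a3: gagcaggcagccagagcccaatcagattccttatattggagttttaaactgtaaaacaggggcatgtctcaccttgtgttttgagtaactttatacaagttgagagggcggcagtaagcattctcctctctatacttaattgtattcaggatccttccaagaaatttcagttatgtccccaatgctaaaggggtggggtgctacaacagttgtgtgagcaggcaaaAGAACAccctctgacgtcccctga
This stretch holds 1 match, and 5284 of 32851 mouse promoters of the same length (16.1%) hold at least 1. A match is a description of the letters and binding was not measured here. Of the 10 genes, 8 had a promoter in this set.

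Slc1a2 (ENSMUSG00000005089; chromosome 2, 102658659 to 102790784, plus strand) encodes the other main transporter and had like medians in both groups. Its level was 1181 to 2978 CPM in PFC CTR (median 2055) and 1046 to 2866 CPM in PFC mCRS (median 2093). The groups overlapped almost entirely, and the log2 fold change was -0.05 (SE 0.12, unadjusted p = 0.664, edgeR). Glul, whose product makes glutamine from glutamate, ranged from 402 to 769 CPM (median 666) in CTR and from 408 to 939 CPM (median 650) in mCRS. Its log2 fold change was 0.09 (SE 0.14, unadjusted p = 0.512, edgeR), with 4 mCRS libraries above every CTR library and 7 of 15 above the CTR median.

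Of the genes for channels, Aqp4 lay between 0 and 242 CPM in PFC CTR (median 77.7) and between 0 and 177 CPM in PFC mCRS (median 33.1). Most mCRS libraries, 11 of 15, were below the CTR median, but both groups spread over their whole range. The log2 fold change was -0.89 (SE 0.56, unadjusted p = 0.118, edgeR), with a 95% interval of -2.01 to 0.23. Gja1, which encodes the gap junction protein connexin 43, ranged from 7.71 to 146 CPM (median 49.5) in CTR and from 10.4 to 123 CPM (median 45.6) in mCRS, with a log2 fold change of -0.24 (SE 0.46, unadjusted p = 0.606, edgeR). At these levels the spread between libraries was too large to detect a change of the size seen in Slc1a3.

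Genes used as astrocyte markers did not pass either. Gfap ranged from 0 to 95.4 CPM in PFC CTR (median 15.9) and from 0.839 to 90.5 CPM in PFC mCRS (median 31.7), and S100b, which encodes a calcium-binding protein, from 39.1 to 270 CPM (median 134) and from 41.5 to 245 CPM (median 137). Their log2 fold changes were -0.03 (SE 0.68) and 0.12 (SE 0.27), with unadjusted p-values of 0.960 and 0.660 from edgeR. The Gfap value had no stable sign, since it was 0.39 with log2 library size as a covariate.

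Genes of metabolic and secreted products had log2 fold changes near 0. Aldoc, which encodes the brain form of the glycolytic enzyme aldolase, lay between 550 and 1105 CPM in PFC CTR (median 737) and between 513 and 1013 CPM in PFC mCRS (median 650). Apoe, which encodes the lipid carrier apolipoprotein E, lay between 1194 and 2140 CPM (median 1627) and between 1251 and 1891 CPM (median 1710). Sparcl1, which encodes the secreted synapse-organising protein hevin, lay between 1516 and 2487 CPM (median 1925) and between 1445 and 2519 CPM (median 2144). All of these groups overlapped, with log2 fold changes of -0.10 (SE 0.13) for Aldoc, 0.04 (SE 0.10) for Apoe and 0.11 (SE 0.10) for Sparcl1. Their unadjusted p-values were 0.457, 0.712 and 0.277 with edgeR.

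The same question was asked in the NAc. Of the 10 genes 0 had an FDR below 0.05, against 1 of 10141 genes tested (0.00986%), which was Ttr, a gene of the choroid plexus. Slc1a3 was the only one of the 10 at an unadjusted p below 0.05, as were 207 of the 10141 (2.04%), while DESeq2 on all 11121 genes called 0, with 393 at that p. The median log2 fold change was -0.03 over the 10 genes and -0.01 over all genes tested.

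Slc1a3 lay between 376 and 829 CPM in NAc CTR libraries (median 528) and between 169 and 661 CPM in NAc mCRS libraries (median 452). The ranges overlapped, with 12 of 16 mCRS libraries below the CTR median and 4 below every CTR library. The fitted level was 0.785 times that of CTR, a log2 fold change of -0.35 (SE 0.14, 95% interval -0.64 to -0.06), and the unadjusted p of 0.0171 ranked 54 of 10141, with an FDR of 1.0 in edgeR's quasi-likelihood test. Without NAc CTR library 7 and NAc mCRS library 10 it was -0.29 (unadjusted p = 0.0459, edgeR).

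The other 9 genes had log2 fold changes between -0.39 and 0.20 in the NAc. Slc1a2 ranged from 930 to 2350 CPM in CTR (median 1618) and from 1252 to 2529 CPM in mCRS (median 1606), and Glul from 541 to 916 CPM (median 695) and from 499 to 963 CPM (median 644). The transporter and the enzyme thus had log2 fold changes near 0, at 0.02 (SE 0.11, unadjusted p = 0.872) and -0.02 (SE 0.12, unadjusted p = 0.843) with edgeR. Gja1 had the lowest of the 9 values, -0.39 (SE 0.36, unadjusted p = 0.284, edgeR), from levels of 20.1 to 115 CPM in CTR (median 68.2) and 7.49 to 97.1 CPM in mCRS (median 51.0). S100b had the highest, 0.20 (SE 0.20, unadjusted p = 0.333, edgeR), from 60.2 to 357 CPM (median 168) and 107 to 357 CPM (median 200). Aqp4 was at 10.6 to 183 CPM in CTR (median 72.9) and 11.1 to 193 CPM in mCRS (median 66.1), and its log2 fold change was -0.12 (SE 0.36). None of these groups was separated from the other.

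Gfap in the NAc ranged from 2.67 to 139 CPM in CTR (median 58.9) and from 10.6 to 143 CPM in mCRS (median 68.5). Aldoc ranged from 654 to 1349 CPM (median 968) and from 500 to 1221 CPM (median 977). For Apoe the levels were 1406 to 3283 CPM (median 2435) and 1688 to 3767 CPM (median 2475), where the highest CTR library was library 7 and the highest mCRS library was library 10. Sparcl1 ranged from 1130 to 2414 CPM (median 1770) and from 1088 to 2589 CPM (median 1704). Their log2 fold changes were 0.07 (SE 0.38), -0.04 (SE 0.11), 0.08 (SE 0.10) and -0.06 (SE 0.10), with unadjusted p-values between 0.411 and 0.861 from edgeR.

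**Figure D2:**
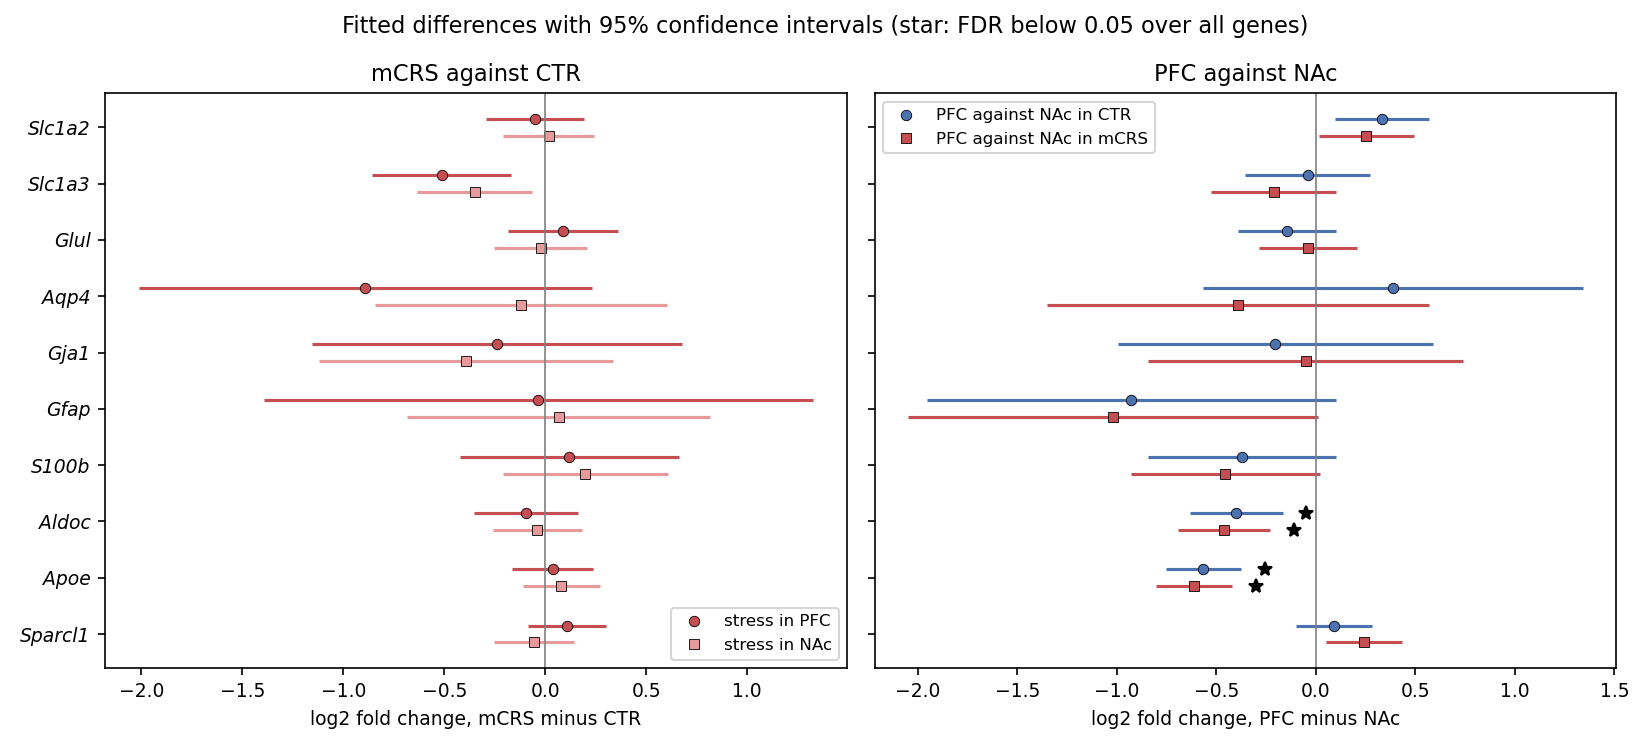
Fitted log2 fold changes (horizontal axis) of the 10 astrocyte genes (vertical axis) with 95% confidence intervals, for mCRS minus CTR in each region on the left and for PFC minus NAc in each treatment on the right, with a star where the FDR over all genes is below 0.05. The interval of Slc1a3 lies below 0 in both regions without a star, and stars stand beside Apoe and Aldoc in both treatments of the right panel.

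Whether stress acted differently in the regions was tested as the interaction over all 62 libraries. Of the 10 genes 0 passed, against 1 of 11025 genes tested (0.00907%), and the smallest unadjusted p of the 10 was 0.257 with edgeR. For Slc1a3 the PFC effect minus the NAc effect was -0.17 on the log2 scale (SE 0.22, unadjusted p = 0.447, edgeR), so the difference between -0.51 and -0.35 was within its error. For Aqp4 it was -0.78 (SE 0.68, unadjusted p = 0.257) and for Sparcl1 0.15 (SE 0.14, unadjusted p = 0.260), and over the 10 genes these values lay between -0.78 and 0.15. The stress effect averaged over both regions, computed after the Slc1a3 values had been seen, was -0.43 for Slc1a3 (SE 0.11, unadjusted p = 0.000201, FDR 0.294, edgeR), which ranked 7 of 11025 and did not pass.

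The balance of the transporters was also followed within each library as log2 CPM of Slc1a2 minus log2 CPM of Slc1a3. The scaling by library size cancels in this quantity, but whether it varied with depth was not tested. In the PFC it was 1.95 ± 0.46 among CTR and 2.485 ± 0.79 among mCRS libraries (SD, n = 15 each), and in the NAc 1.56 ± 0.51 and 2.004 ± 0.67 (SD, n = 16 each). The mCRS mean exceeded the CTR mean by 0.53 in the PFC, with 12 of 15 mCRS libraries above the CTR median, and by 0.44 in the NAc, with 13 of 16 above it. Two-sided permutation tests with 100000 resamples gave p = 0.0218 for the PFC and p = 0.0400 for the NAc, and both became 0.0533 after adjustment over 4 comparisons. The PFC exceeded the NAc by 0.39 in CTR (p = 0.0322, adjusted p = 0.0533) and by 0.48 in mCRS (p = 0.0732, adjusted p = 0.0732) in the same permutation tests. None of the 4 differences passed after adjustment. They were not recomputed without NAc CTR library 7, which had the lowest Slc1a2 of its group (930 CPM). Nor were they recomputed without PFC mCRS library 9, which had the lowest Slc1a3 of its group (70.5 CPM).

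**Figure D3:**
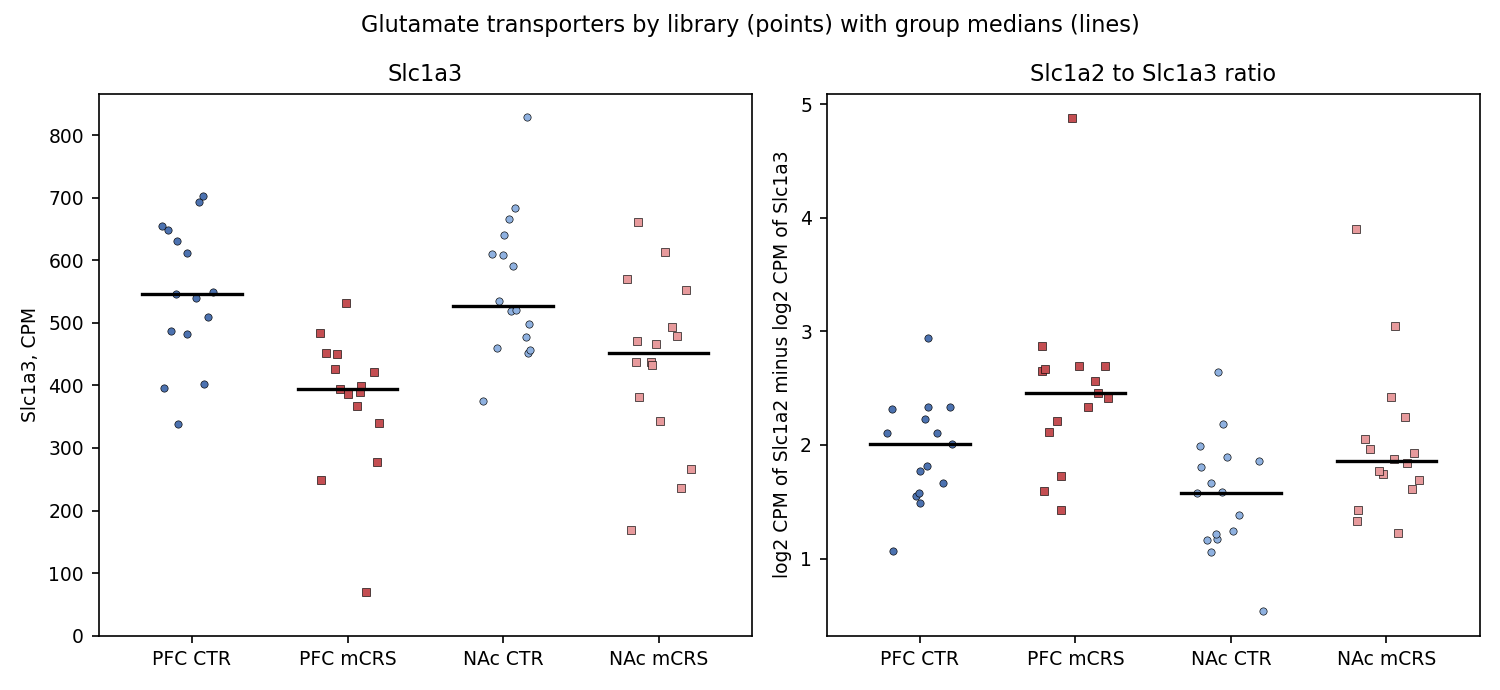
Slc1a3 in CPM (left) and the log2 CPM of Slc1a2 minus that of Slc1a3 (right) in the 4 groups, with 1 point per library and a line at the group median. In the PFC the mCRS libraries of Slc1a3 all lie below the CTR median of 546 CPM, and 1 mCRS library stands at 70.5 CPM and at the top of the right panel.

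The regions were then compared within each treatment, all 62 libraries sharing one fit. Among CTR mice 2 of the 10 genes, Apoe and Aldoc, were lower in the PFC than in the NAc and 0 were higher, and the same was counted among mCRS mice. Over all 11025 genes 208 (1.89%) were lower and 392 (3.56%) higher in the PFC among CTR mice, and 289 (2.62%) lower and 426 (3.86%) higher among mCRS mice, at an FDR below 0.05 with edgeR, which makes 5.44% and 6.49% in either direction. The split differed between methods, since DESeq2 called 400 higher and 356 lower in CTR and 471 higher and 500 lower in mCRS. With RLE size factors in edgeR, where only the scaling changed, 313 were higher and 241 lower in CTR. In mCRS these counts were 374 and 327. The 10 genes had a median log2 value of -0.17 in CTR and -0.30 in mCRS, against -0.04 and -0.06 over all genes. The CTR and the mCRS comparison use different libraries.

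Apoe (ENSMUSG00000002985; chromosome 7, 19696109 to 19699188, minus strand) had the smallest p of the 10 genes between the regions, and its levels are those given above. All 15 PFC CTR libraries lay below the NAc CTR median, and 12 of 16 NAc CTR libraries lay above every PFC CTR library. Among mCRS mice, all 15 PFC libraries were below the NAc median and 14 of 16 NAc libraries above every PFC library. The log2 fold change of PFC against NAc was -0.57 (SE 0.10, FDR 6.6e-06) in CTR and -0.61 (SE 0.10, FDR 8.9e-07) in mCRS by edgeR's quasi-likelihood test, which is 0.676 and 0.654 times the NAc level. Without NAc CTR library 7 and NAc mCRS library 10, which had the highest Apoe of their groups, the values were -0.52 and -0.57.

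Aldoc (ENSMUSG00000017390; chromosome 11, 78322968 to 78327781, plus strand) was lower in the PFC as well, with more overlap. Below the NAc median lay 13 of 15 PFC libraries in CTR and 14 of 15 in mCRS. The log2 fold change was -0.40 (SE 0.12, FDR 0.0227) in CTR and -0.46 (SE 0.12, FDR 0.00471) in mCRS with edgeR. The CTR call was lost without NAc CTR library 7, which had the highest Aldoc of its group (log2 fold change -0.35, FDR 0.0703, edgeR), and without any one of PFC CTR libraries 2, 9, 12, 13 and 15 (FDR 0.0518 to 0.0654). The mCRS call held without any single library, with an FDR of at most 0.0120 in edgeR.

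The promoters of both genes are shown because these are the genes that differed between the regions. They are again the 250 bases before a RefSeq start site in GRCm38.p6, chr7:19699189-19699438 on the minus strand for Apoe and chr11:78323948-78324197 on the plus strand for Aldoc, with AGAACA on either strand in capitals.
Apoe: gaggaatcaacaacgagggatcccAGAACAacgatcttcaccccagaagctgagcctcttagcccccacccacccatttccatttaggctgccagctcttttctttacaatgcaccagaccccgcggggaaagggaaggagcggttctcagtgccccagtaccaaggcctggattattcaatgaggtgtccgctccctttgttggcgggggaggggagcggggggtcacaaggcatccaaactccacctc
Aldoc: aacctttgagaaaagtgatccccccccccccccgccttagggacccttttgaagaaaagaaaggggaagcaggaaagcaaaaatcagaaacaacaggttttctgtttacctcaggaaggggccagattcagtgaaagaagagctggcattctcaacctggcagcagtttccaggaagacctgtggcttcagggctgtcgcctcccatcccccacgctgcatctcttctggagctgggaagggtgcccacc
Apoe holds 1 match and Aldoc none in this window. Both genes have further start sites in RefSeq, whose windows hold 0 matches.

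For the transporter gene Slc1a2 the difference had the other sign and did not pass the test. Above the NAc median lay 13 of 15 PFC libraries in CTR and 12 of 15 in mCRS, with 6 PFC CTR libraries above every NAc CTR library. The log2 fold change was 0.33 (SE 0.12, unadjusted p = 0.00623, FDR 0.0942) in CTR and 0.25 (SE 0.12, unadjusted p = 0.0358, FDR 0.262) in mCRS, with edgeR. It passed in CTR without PFC CTR library 10 (FDR 0.0486) or 14 (FDR 0.0349). Slc1a3 had log2 fold changes of -0.04 (SE 0.16) in CTR and -0.21 (SE 0.16) in mCRS, and Glul of -0.14 (SE 0.12) and -0.04 (SE 0.12), with the regions overlapping.

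Sparcl1 was near 0 among CTR mice, at 0.09 (SE 0.10), and at 0.24 (SE 0.10, unadjusted p = 0.0126, FDR 0.133, edgeR) among mCRS mice, where 13 of 15 PFC libraries were above the NAc median. It passed there without NAc mCRS library 1 (FDR 0.0458, edgeR). Gfap and S100b had lower fitted levels in the PFC without passing the test. Gfap was at -0.93 (SE 0.52, unadjusted p = 0.0762) and -1.02 (SE 0.52, unadjusted p = 0.0520) and S100b at -0.37 (SE 0.24, unadjusted p = 0.124) and -0.45 (SE 0.24, unadjusted p = 0.0599) in CTR and mCRS with edgeR. Aqp4 and Gja1 had no direction beyond their error, at 0.39 (SE 0.48) and -0.20 (SE 0.40) in CTR and -0.39 (SE 0.48) and -0.05 (SE 0.40) in mCRS.

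Among markers of other cells, those of oligodendrocytes differed between the regions and those of microglia mostly did not. Oligodendrocyte markers passed as lower in the PFC for 7 of 19 genes in CTR and 9 of 19 in mCRS, with 0 higher. Their summed level was 2663 to 6893 CPM in PFC CTR and 3326 to 8435 CPM in PFC mCRS, against 6138 to 9517 CPM in NAc CTR and 6187 to 9926 CPM in NAc mCRS. Microglia, which also express Apoe, had 0 of 15 markers called in CTR and 1 of 15 in mCRS, Itgam (lower), and summed levels of 439 to 1108 CPM in PFC CTR, 678 to 1145 CPM in PFC mCRS, 657 to 1260 CPM in NAc CTR and 671 to 1180 CPM in NAc mCRS. No marker of either list was at 0 in every library of a group, and Itgam had a median of 0 CPM in PFC mCRS. The part of these cells in the levels of Apoe and Aldoc was not tested.

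**Figure D4:**
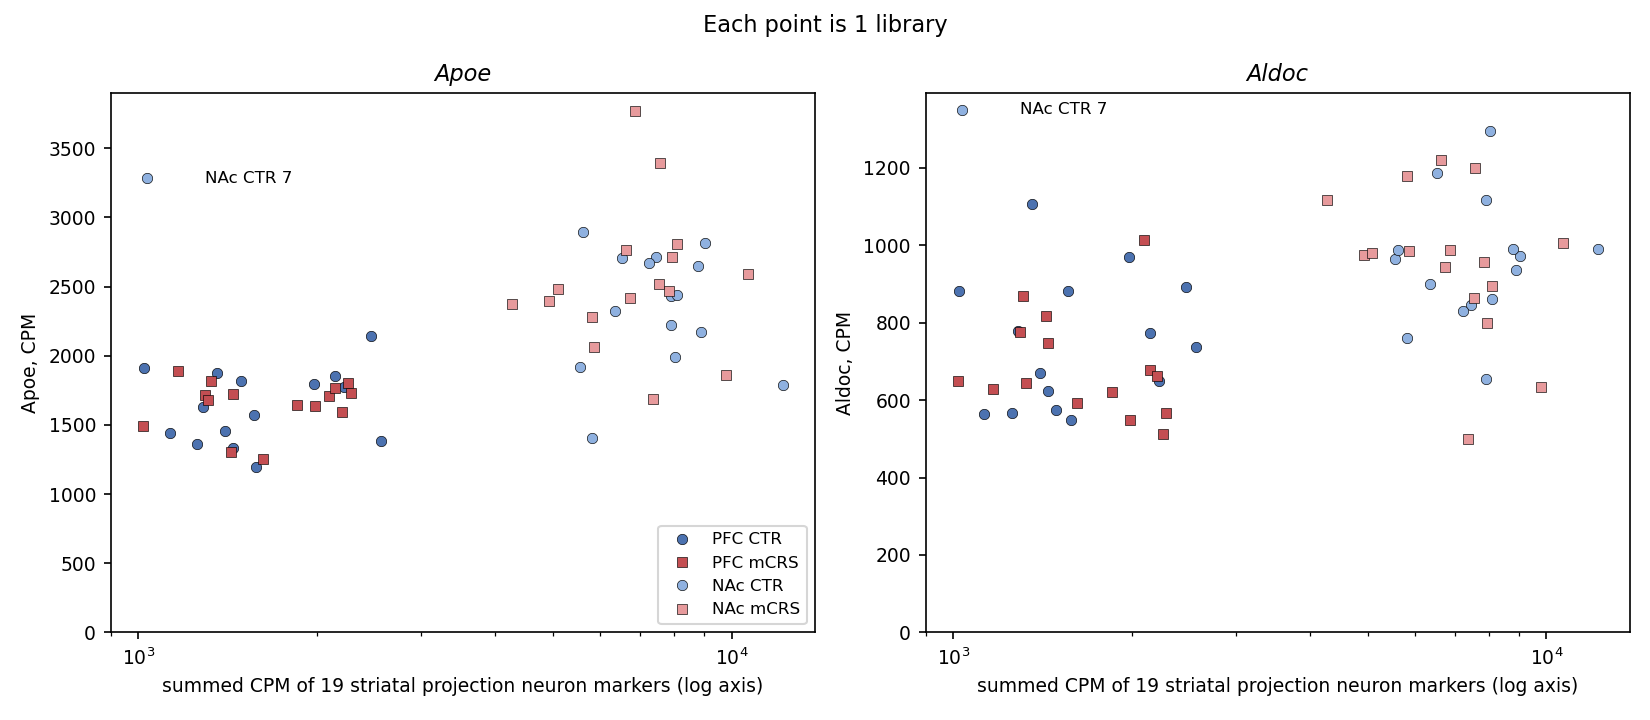
Apoe (left) and Aldoc (right) in CPM (vertical axes, from 0) against the summed CPM of 19 striatal projection neuron markers (horizontal axis, log scale), with 1 point per library and the groups told apart by colour and shape. NAc CTR library 7 has 1035 CPM of striatal markers, as PFC libraries do, yet the highest Apoe (3283 CPM) and Aldoc (1349 CPM) of the NAc CTR group.

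A wider list of 81 other astrocyte genes gave the surroundings of the 10. Of these, 4 were higher and 13 lower in the PFC in CTR, and 4 higher and 11 lower in mCRS. Over the list the log2 fold changes had medians of -0.33 and -0.34. Sparc, a secreted matrix protein related to Sparcl1, had medians of 221 CPM in PFC CTR and 927 CPM in NAc CTR and a log2 fold change of -1.91 (SE 0.20, FDR 6.76e-13, edgeR), with -1.79 in mCRS. Ndrg2 was lower in both treatments, with log2 fold changes of -0.60 in CTR and -0.88 in mCRS. Agt, which encodes angiotensinogen, had medians of 93.6 CPM in NAc mCRS and 0.475 CPM in PFC mCRS, a level under the counting floor. It was called lower in CTR as well (-4.01). Nfib, a transcription factor also found in neurons, was higher in the PFC (1.67 in CTR and 1.69 in mCRS), as was Tspan7 (0.56 and 0.43). Under stress 0 of these genes passed in either region, with medians of -0.02 in the PFC and 0.01 in the NAc.

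Of 18 counted genes of glutamate transport and the glutamine cycle outside the 10, 17 were tested between regions. In CTR 3 were higher in the PFC, among them Slc17a7 (3.17), which loads glutamate into vesicles of cortical neurons, and Slc25a22 (0.90), a mitochondrial glutamate carrier. One was lower, the glutamine transporter Slc38a1 (-0.67). In mCRS 2 were higher, among them Slc17a7 (2.86), and 1 was lower, the vesicular transporter Slc17a6 (-2.42). Slc17a6 was at -2.24 in CTR without passing (FDR 0.0892, edgeR). Slc25a22 and Slc38a1 were at 0.18 and -0.17 in mCRS, also without passing. The neuronal transporter Slc1a1 and the exchanger Slc7a11 did not pass, at 0.05 (SE 0.42) and -0.06 (SE 0.56) in CTR. Under stress 0 of 16 passed in the PFC, where 3 were above and 13 below 0 (median of the log2 values -0.27), and 0 of 16 passed in the NAc, with a median of 0.06.

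Of genes linked to reactive astrocytes, 15 of 36 were counted and 14 tested between regions. S100a10 was higher in the PFC in both treatments, with log2 fold changes of 1.79 (FDR 0.00509) and 1.36 (FDR 0.0495) by edgeR, and 0 others passed. This 1 of 14 is near the share over all genes, 5.44% in CTR and 6.49% in mCRS. Which cells the S100a10 reads came from was not tested. Under stress 0 of 8 passed in the PFC and 0 of 12 in the NAc.

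The last question was whether the 10 genes rose and fell together between libraries of a group. Over 45 pairs in each of 4 groups the median Pearson's r was between 0.0046 (PFC mCRS) and 0.12 (NAc mCRS). Of the 180 relations, 20 had a permutation p below 0.05 and 0 had an adjusted p below 0.05, for r or for Spearman's rho. Being measured in the same libraries, the genes share depth and scaling.

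Slc1a2 and Apoe had negative relations in the NAc. In NAc CTR their r was -0.73 (permutation p = 0.00094, adjusted p = 0.118) and rho -0.74 (p = 0.00143, adjusted p = 0.179), and r was -0.65 without the 2 libraries farthest from the median of Slc1a2. In NAc mCRS r was -0.63 (permutation p = 0.00877, adjusted p = 0.273), rho -0.57 (p = 0.0232, adjusted p = 0.431) and r -0.57 without the 2 farthest. Slc1a2 and Gfap had an r of -0.67 in NAc CTR (permutation p = 0.00278, adjusted p = 0.167), with a rho of -0.71 (p = 0.00299, adjusted p = 0.179) and an r of -0.57 without the 2 farthest. NAc CTR library 7, which was low in striatal markers, had the lowest Slc1a2 (930 CPM) and the highest Apoe (3283 CPM) and Gfap (139 CPM) of its group. Without it and NAc mCRS library 10, Slc1a2 and Apoe in NAc CTR had r -0.66 (permutation p = 0.00573, adjusted p = 0.252) and rho -0.68 (p = 0.00637, adjusted p = 0.382), and Slc1a2 and Gfap had r -0.62 (permutation p = 0.00703, adjusted p = 0.252) and rho -0.65 (p = 0.00972, adjusted p = 0.428). Slc1a2 and Apoe in NAc mCRS then had r -0.55 (permutation p = 0.0342, adjusted p = 0.389) and rho -0.49 (p = 0.0643, adjusted p = 0.649). None of these pairs passed the adjustment, with or without the libraries.

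Aldoc and Apoe in PFC CTR had r 0.66 (permutation p = 0.0084, adjusted p = 0.273), rho 0.73 (p = 0.00285, adjusted p = 0.179) and r 0.57 without the 2 farthest. Their r in NAc mCRS was 0.62 (permutation p = 0.0122, adjusted p = 0.273; rho 0.34, p = 0.203, adjusted p = 0.851) and 0.09 without the 2 farthest libraries. It was 0.34 in NAc CTR (rho 0.24) and -0.07 in PFC mCRS (rho -0.14). The lowest r of the 180 was that of Gja1 and Aldoc, with -0.74 in PFC CTR (permutation p = 0.00131, adjusted p = 0.118; rho -0.68, p = 0.00635, adjusted p = 0.286; r -0.58 without the 2 farthest). In NAc mCRS the same pair had r 0.60 (permutation p = 0.0115, adjusted p = 0.273), rho 0.55 (p = 0.0288, adjusted p = 0.431) and r 0.50 without the 2 farthest, and its r was 0.24 in PFC mCRS and 0.01 in NAc CTR. The differences between groups were not tested for either pair.

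With log2 CPM centred within each group and all 62 libraries joined, given as a description, r was above 0 for 30 of 45 pairs and had a median of 0.04. The lowest was -0.43 for Slc1a2 with Apoe and the highest 0.44 for Aldoc with Apoe. The mean r of a gene with the other 9 ran from -0.13 for Slc1a2 to 0.09 for Aldoc.

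**Figure D5:**
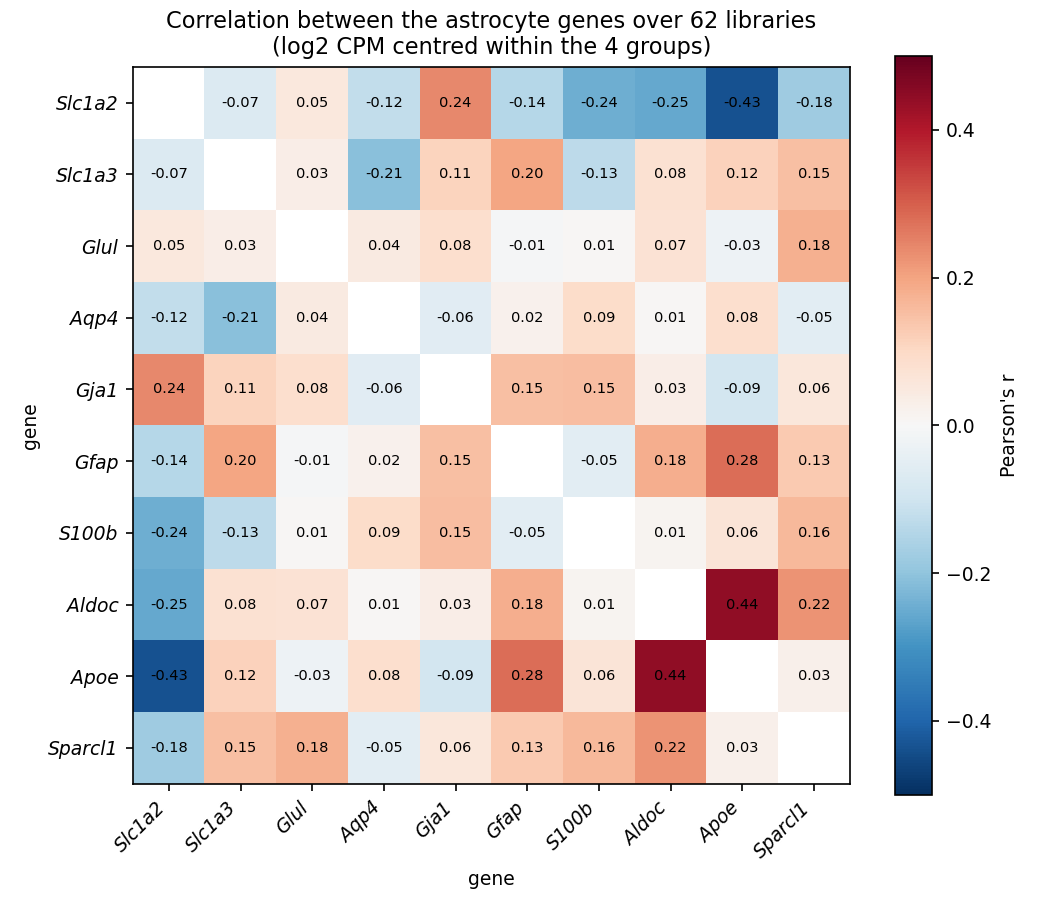
Pearson's r between each pair of the 10 astrocyte genes over 62 libraries (colour and printed value), on log2 CPM centred within the 4 groups. Most cells are near 0, the lowest is -0.43 (Slc1a2 with Apoe) and the highest 0.44 (Aldoc with Apoe).

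Genes outside the 10 were ordered by their mean r with them, on the same centred values over 62 libraries and among 9323 genes. The 10 most alike were Gnas (0.24), Sparc (0.22), Tada3 (0.21), Spint2 (0.21), Gatm (0.20), Aldh1l1 (0.20), Cacna2d2 (0.19), Phlda3 (0.19), Tmem255a (0.19) and BC037034 (0.18). Sparc and Aldh1l1 were on the list of other astrocyte genes. The median over all 9323 genes was 0.02, and these are weak correlations in sparse counts, given as a description.

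Against the depth, the share of genes detected and the mitochondrial share of a library, 0 of 120 relations of the 10 genes had an adjusted p below 0.05. Slc1a2 had the smallest p, with the mitochondrial share in PFC mCRS (r -0.74, permutation p = 0.00138, adjusted p = 0.166; rho -0.69, p = 0.00533, adjusted p = 0.322; r -0.59 without the 2 farthest). Slc1a2 also had r 0.71 with the share of genes detected in PFC mCRS (permutation p = 0.00334, adjusted p = 0.200). With the mitochondrial share its r was -0.65 in PFC CTR (permutation p = 0.00635, adjusted p = 0.254), but 0.38 in NAc CTR and 0.29 in NAc mCRS. Slc1a3 had r 0.58 with depth in NAc mCRS (permutation p = 0.0165, adjusted p = 0.309), and 0.85 without the 2 farthest. There the r of Slc1a2 with depth was 0.06. For Slc1a3 it was -0.31 in PFC CTR, 0.10 in PFC mCRS and -0.06 in NAc CTR. Against the summed markers of other cells, 0 of 320 relations passed for r and 1 for rho, that of Sparcl1 with striatal projection neuron markers in NAc CTR. Its rho was -0.85 (permutation p = 7e-05, adjusted p = 0.0224) and its r -0.66 (p = 0.00615, adjusted p = 0.219), also -0.66 without the 2 farthest libraries. At its ends lay 2 libraries of the group. NAc CTR library 7 had the highest Sparcl1 (2414 CPM) and the lowest striatal sum (1035 CPM). NAc CTR library 10 had the lowest Sparcl1 (1130 CPM) and the highest striatal sum (12205 CPM). The relation was not recomputed without library 7 alone. It did not pass without library 7 and NAc mCRS library 10 (rho -0.82, permutation p = 0.00032, adjusted p = 0.096; r -0.79, p = 0.00038, adjusted p = 0.0576), nor without NAc CTR library 10 (rho -0.82, permutation p = 0.0003, adjusted p = 0.0949) or NAc CTR libraries 7 and 10 (rho -0.78, permutation p = 0.00174, adjusted p = 0.186), although its sign held each time. Apoe had r 0.73 with microglia markers in NAc CTR (permutation p = 0.00099, adjusted p = 0.0634; rho 0.70, p = 0.00308, adjusted p = 0.164; r 0.61 without the 2 farthest). Slc1a2 had r 0.76 with cortical excitatory neuron markers in PFC mCRS (permutation p = 0.00093, adjusted p = 0.0634; rho 0.79, p = 0.00089, adjusted p = 0.0712; r 0.72 without the 2 farthest) and 0.74 in NAc CTR (permutation p = 0.00029, adjusted p = 0.0634; rho 0.66, p = 0.00718, adjusted p = 0.255; r 0.60 without the 2 farthest). Without NAc CTR library 7 and NAc mCRS library 10, the relations in NAc CTR had r 0.76 for Apoe with microglia markers (permutation p = 0.00086, adjusted p = 0.0576) and r 0.63 for Slc1a2 with cortical excitatory neuron markers (permutation p = 0.011, adjusted p = 0.275).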

How the data were processed

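Per the labels, counts per gene were deposited by the authors, who demultiplexed the reads with bcl2fastq, mapped them with STAR to mm10 (GRCm38) and counted them with HTSeq 0.9.1; PFC samples that sequenced poorly had been dropped by the authors. The deposited counts are whole numbers for 11121 genes, without normalization or molecular identifiers. The floor of 3 counts covers counting error only, while the intervals also take in the spread between libraries. No row was a total or lacked a gene, and the table held 0 columns of other series. The members and lists were chosen with earlier results of these data known.

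From the counts, the tests were run with edgeR 4.0.16 (R 4.3.3): TMM scaling, the default filter on low counts by group, the quasi-likelihood test and Benjamini-Hochberg adjustment over all genes tested, called at an FDR below 0.05. Stress was fitted in each region alone, and the regional differences and the interaction over all 4 groups. Log2 CPM used a prior count of 2, Spearman and Pearson correlations and ratios were tested by two-sided permutation with 100000 resamples (Python 3.11.15, scipy 1.17.1), and adjusted over each family. Names and coordinates come from GENCODE M21 (GRCm38), promoters from RefSeq (GRCm38.p6). Named are the 10 genes, up to 4 genes of smallest p per list and comparison at an FDR below 0.05, and the 10 genes of highest mean r with the members. Slc1a1, Slc7a11 are no part of this rule and were added with their values known. Some genes that this rule names are not reported here.

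The fold changes were recomputed with DESeq2 1.42.0, with RLE and with upper-quartile scaling, and with library sizes without mitochondrial DNA genes. Further fits had no filter, or a minimum of 10 counts in 50% of libraries. Covariates were library size, genes detected or low against high replicate numbers. Other fits had a replicate block, other sets of libraries, or each library left out. Correlations between the 10 genes were recomputed with upper-quartile scaling, and with library sizes without mitochondrial DNA genes or without the 10 genes. They were also computed on residuals after library size or genes detected, and after thinning to 945286 counts. The transporter ratio was recomputed only with this thinning and with a prior count of 0.5. Relations with library measures were not recomputed, and those with markers only without chosen libraries. Leaving out NAc CTR library 7 and NAc mCRS library 10 together, leaving out NAc CTR library 10 alone or with library 7 for correlations with markers, leaving out libraries with 0 counts of Aqp4 and the averaged stress effect were chosen after values had been seen. The scripts were tested on simulated data.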

Additional observations from a re-analysis of the deposited data

How the results depend on the processing

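All alternatives left 0 of the 10 genes called under stress and in the interaction. Slc1a3 was negative in every one, from -0.58 to -0.43 in the PFC and from -0.43 to -0.29 in the NAc. The -0.43 listed for the NAc is the stress effect averaged over both regions. With 1 library left out, the lowest NAc value was -0.39. Apoe was called lower in the PFC in both treatments in every alternative. With 1 library left out, the genes called lower in CTR numbered 1 to 2 and those called higher 0 to 1 (mCRS 0 to 1 higher); without NAc CTR library 7 and NAc mCRS library 10, and without libraries with 0 counts of Aqp4, 1 was called lower in CTR. Over all genes the stress count in the PFC was 0, against 1 without a filter, 1 with the replicate block, 5 with all 62 libraries, 1 averaged over regions and 0 to 2 with 1 library left out. In the NAc it was 1, against 2 without a filter and with all 62 libraries, and 0 with each covariate, the block, DESeq2 and without libraries 7 and 10, and 0 to 1 with 1 library left out. The interaction count of 1 was 0 with the stricter filter and the block, and 1 to 7 with 1 library left out. Signs that turned all belonged to fold changes within their error. Under stress in the PFC, Gfap was 0.39 with library size, 0.38 with genes detected, 0.063 with low against high replicate numbers, 0.29 with the block and 0.015 averaged, and Slc1a2 was 0.065 with genes detected. In the NAc, Slc1a2 was -0.0010 with library size and -0.018 averaged, Aldoc 0.0019 without libraries 7 and 10, and Glul 0.032 and Sparcl1 0.024 averaged. In the interaction Gfap was 0.016, 0.13 and 0.10 with library size, genes detected and the block. Between regions in mCRS, Gja1 was 0.11 with genes detected and 0.023 without libraries 7 and 10. With 1 library left out, the values that changed sign ran as follows. In the PFC Gfap ran from -0.24 to 0.17. In the NAc Aldoc ran from -0.065 to 0.0099, Aqp4 from -0.31 to 0.024, Gfap from -0.048 to 0.20, Glul from -0.058 to 0.011 and Slc1a2 from -0.028 to 0.058. In the interaction Apoe ran from -0.10 to 0.0011, Gfap from -0.33 to 0.080 and Gja1 from -0.026 to 0.30. Between regions Slc1a3 ran from -0.072 to 0.017 in CTR, and Gja1 from -0.22 to 0.036 and Glul from -0.089 to 0.0075 in mCRS. The causes were not tested. Same-numbered libraries did not deviate together (0 pairs with r above 0.1, and 1 or 2 libraries of a group correlated best with their own number). No libraries known to share a mouse were at hand for comparison, so this cannot tell whether equal numbers mark the same mouse. The replicate block changed no call of the 10 genes (0 called under stress, 2 lower between regions in each treatment). No pair of genes passed the adjustment in any recomputation of the correlations. The relation of Sparcl1 with striatal markers in NAc CTR lost its call without NAc CTR library 10. It also lost it without NAc CTR library 7 and NAc mCRS library 10 together. The 4 differences of the transporter ratio kept their sign and did not pass with a prior count of 0.5 or with thinned libraries. Precision is limited by the spread between libraries, most for Aqp4, Gja1 and Gfap.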
